A study of Mus musculus with 12 samples.

Results

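The gene models deposited with an RNA-seq study of mouse nucleus accumbens (NAc) mark 469 of 87740 transcripts (0.5345%) as immunoglobulin variable (V), diversity (D) or joining (J) segments. The members were chosen by that mark alone, the source column of each model (IG_V_gene, IG_D_gene or IG_J_gene). They comprise 356 V, 25 D and 88 J models on 6 chromosomes. The mark did not separate the 2 kinds of antigen receptor. By their RefSeq names and positions, 244 members were immunoglobulin segments (214 V, 21 D and 9 J) and 222 were T cell receptor segments (139 V, 4 D and 79 J), while 3 V models had neither. No transcript of the file carried a T cell receptor mark of its own, so these T cell receptor segments were listed under the immunoglobulin mark. A further 12 transcripts, marked IG_C_gene, hold 11 constant regions and Ptcra, the pre-T cell receptor alpha gene, and were used for comparison, as were the 87259 transcripts of other kinds.

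The study sequenced mRNA of the NAc, a ventral striatal region that takes part in reward, from C57BL/6 mice. There were 12 samples, 3 pools in each of 4 groups, and the labels give 3 to 5 animals of 8 to 10 weeks per pool. Repeated cocaine was given for 1 week at 20 mg/kg by intraperitoneal injection, beside saline for 1 week. Acute cocaine was 6 days of saline and then 1 day of cocaine at 20 mg/kg, beside its own saline group, and tissue was taken 24 h after the last injection. The file holds no value for any sample. Depth, cocaine effects and the markers of the dissected tissue could therefore not be examined, and no test between groups was made. Everything below describes the models against which the reads were counted and the genome under them, on the NCBIM37 (mm9) build.

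Antigen receptors are assembled in lymphocytes. The RAG1/RAG2 recombinase joins 1 V, 1 J and, in the heavy, beta and delta chains, a D segment into the exon of the variable domain. It cuts at a recombination signal beside each segment, made of a heptamer (CACAGTG), a spacer of about 12 or 23 bases and a nonamer (ACAAAAACC), and pairs a signal of the short spacer with one of the long spacer. In cells other than lymphocytes, the neurons and glia of the NAc among them, the segments lie unjoined as they do in the reference genome.

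The D segments show the signals on both sides within one short stretch. The 6 below are printed because they hold signals on both sides, as examples from the heavy, delta and beta clusters. Capitals mark, from left to right, the nonamer and heptamer before the segment and the heptamer and nonamer after it, and the lower case run between the heptamers is the segment model. The models lie at chr12:114668739-114668749, chr12:114704238-114704254, chr12:114720381-114720403 and chr12:114702972-114702981 on the minus strand, and at chr14:54741901-54741916 and chr6:41483200-41483211 on the plus strand.
Ighd4-1: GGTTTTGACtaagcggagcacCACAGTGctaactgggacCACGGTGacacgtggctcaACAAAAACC
Ighd2-5: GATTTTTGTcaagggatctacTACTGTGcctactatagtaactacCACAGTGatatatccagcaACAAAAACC
Ighd1-1: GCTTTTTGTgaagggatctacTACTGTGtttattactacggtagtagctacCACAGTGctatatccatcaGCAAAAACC
Ighd5-3: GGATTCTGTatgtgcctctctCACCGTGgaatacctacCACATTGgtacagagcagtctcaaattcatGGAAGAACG
Trdd2: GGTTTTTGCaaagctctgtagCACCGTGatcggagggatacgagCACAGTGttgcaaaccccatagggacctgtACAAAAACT
Trbd1: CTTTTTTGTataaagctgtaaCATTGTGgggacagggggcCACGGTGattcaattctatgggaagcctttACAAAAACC

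Ighd4-1, Ighd2-5 and Ighd1-1 had a spacer of 12 bases on both sides. Trdd2 and Trbd1 had 12 bases before and 23 after the segment. Ighd5-3, a pseudogene in RefSeq, also had 12 and 23 bases, but its nonamer after the segment had 4 mismatches, the limit of the search described below.

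V segments carry their signal after the 3′ end. The V models below are printed as 1 or 2 examples of each cluster, with the last 21 bases of the model in lower case, then the heptamer in capitals, the spacer in lower case and the nonamer in capitals. They lie at chr12:117238239-117238672 (minus), chr12:114816715-114817201 (minus), chr6:67505630-67506210 (plus), chr6:70653572-70654171 (plus), chr6:43031517-43032096 (minus), chr16:19085110-19085553 (minus), chr14:53200382-53200888 (plus), chr14:54768337-54768876 (minus), chr6:40841295-40841884 (plus) and chr13:19284302-19284594 (plus), in the order of the lines.
Ighv1-85: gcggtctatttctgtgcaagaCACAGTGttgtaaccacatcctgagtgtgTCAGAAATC
Ighv5-2: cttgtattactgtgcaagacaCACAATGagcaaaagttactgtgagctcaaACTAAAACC
Igkv2-137: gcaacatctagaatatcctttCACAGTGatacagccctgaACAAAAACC
Igkv3-1: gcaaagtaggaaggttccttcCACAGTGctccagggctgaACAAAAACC
Igk-V: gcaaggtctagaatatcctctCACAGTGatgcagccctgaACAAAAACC
Iglv1: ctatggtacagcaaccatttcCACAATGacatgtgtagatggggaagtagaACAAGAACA
Trav3-1: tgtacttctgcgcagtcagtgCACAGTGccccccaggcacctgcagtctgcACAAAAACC
Trdv5: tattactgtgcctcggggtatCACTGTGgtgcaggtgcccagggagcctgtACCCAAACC
Trbv1: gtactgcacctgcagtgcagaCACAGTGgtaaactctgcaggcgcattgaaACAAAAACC
Trgv5: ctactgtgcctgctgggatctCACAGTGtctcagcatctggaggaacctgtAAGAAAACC

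The kappa signals Igkv2-137, Igkv3-1 and Igk-V had the short spacer of 12 bases. The other 7 had the long one, of 22 bases in Ighv1-85 and 23 bases in the rest.

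J segments carry their signal before the 5′ end and a motif that encodes the glycine turn of the joined domain. The J models of the heavy and kappa clusters, with 1 of the beta and 1 of the gamma cluster, are printed with the motif in capitals. The heavy chain form searched was TGGGG, 4 free bases and GGN, the other form TTNGG, 4 free bases and GGN, both on the coding strand only. Those without capitals did not hold the letters.
Ighj1: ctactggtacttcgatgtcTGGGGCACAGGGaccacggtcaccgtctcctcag
Ighj2: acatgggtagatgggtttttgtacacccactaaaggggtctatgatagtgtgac
Ighj3: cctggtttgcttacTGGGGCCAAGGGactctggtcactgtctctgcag
Ighj4: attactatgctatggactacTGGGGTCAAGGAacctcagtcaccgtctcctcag
Igkj1: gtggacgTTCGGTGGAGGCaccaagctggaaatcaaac
Igkj2: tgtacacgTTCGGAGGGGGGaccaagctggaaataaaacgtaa
Igkj3: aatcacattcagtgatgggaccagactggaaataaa
Igkj4: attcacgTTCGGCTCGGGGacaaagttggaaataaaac
Igkj5: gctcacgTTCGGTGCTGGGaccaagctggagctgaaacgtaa
Trbj1-1: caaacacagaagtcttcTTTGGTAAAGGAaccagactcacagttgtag
Trgj1: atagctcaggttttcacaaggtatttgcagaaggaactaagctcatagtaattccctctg

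The heavy chain models lie between chr12:114666725 and 114668044 on the minus strand and the kappa models between chr6:70672556 and 70673921 on the plus strand. Trbj1-1 lies at chr6:41483863-41483910 and Trgj1 at chr13:19302212-19302271, both on the plus strand. Of the 9 immunoglobulin J models, Ighj2 and Igkj3 did not hold the motif.

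The members fell into 6 clusters and 3 stray models, when a distance of 1 Mb separated clusters. The heavy chain cluster (IGH, chr12:114666725-117238672, 2572 kb) held 112 V, 21 D and 4 J. The kappa cluster (IGK, chr6:67505630-70673921, 3168 kb) held 99 V and 5 J. The lambda cluster (IGL, chr16:19085110-19260937, 175.8 kb) held 3 V, Iglv1, Iglv3 and Iglv2, and no J model. The joint T cell receptor alpha and delta cluster (TRA/TRD, chr14:53047603-54838515, 1791 kb) was the most numerous, with 109 V, 2 D and 61 J. The beta cluster (TRB, chr6:40841295-41508370, 667.1 kb) held 23 V, 2 D and 14 J, and the gamma cluster (TRG, chr13:19269911-19434081, 164.2 kb) 7 V and 4 J. RefSeq gave a name to 459 members and called 38 of them pseudogenes.

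Within a cluster the classes were mostly stacked as V, D and J in the direction of transcription. In IGH, read on the minus strand, the 112 V ran from Ighv1-85 at the far end to Ighv2-1, a gap of 46.19 kb followed to the first D, and the last D, Ighd4-1, lay 0.694 kb before Ighj1. In IGK, Igkv3-1 was followed after 18.38 kb by Igkj1. In TRA/TRD the 2 D and 2 J of the delta chain (Trdd1, Trdd2, Trdj1 and Trdj2) lay between Trdv4 and Trdv5, inside the alpha segments, and the 59 alpha J ran from Traj61 to Traj1. The beta cluster had 2 units in a row, Trbd1 with Trbj1-1 to Trbj1-7 and, 6.476 kb on, Trbd2 with Trbj2-1 to Trbj2-7. Its widest gap was the 251.2 kb between Trbv30 and Trbd1. In TRG the V and J models alternated, with Trgj1 between Trgv5 and Trgv3, Trgj3 and Trgj2 between Trgv3 and Trgv2, and Trgj4 after Trgv1.

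The strand differed more between clusters than within most of them. IGH had 135 of 137 members on the minus strand, and the 2 on the plus strand, Ighv5-8 and Ighv1-13, were both single exon models that RefSeq calls pseudogenes. TRA/TRD had 171 of 172 on the plus strand and TRB 38 of 39, with Trdv5 and Trbv31 as the exceptions, the first between Trdj2 and Traj61 and the second beyond Trbj2-7. In TRG, Trgj2 and Trgv2 were on the minus strand. IGK stood apart, with 38 V on the plus and 61 V on the minus strand in 17 runs of like strand, against 5 in IGH, 3 in TRA/TRD and TRG, 2 in TRB and 1 in IGL.

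**Figure D1:**
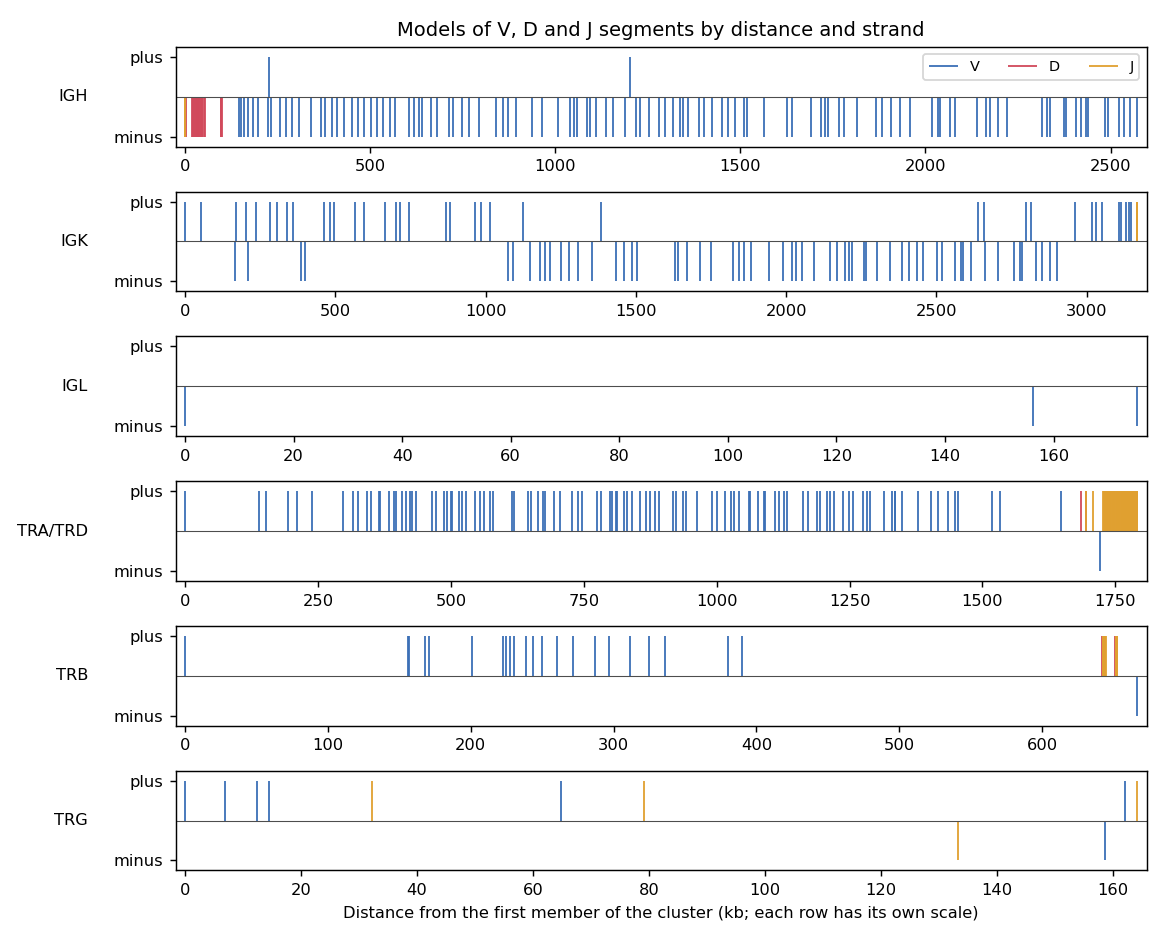
Position (kb from the first member, each row with its own scale) and strand of the V, D and J models of 6 clusters, 1 line per model, up for the plus and down for the minus strand. IGK is split into 38 V models on the plus and 61 on the minus strand, while IGH has only 2 lines above the axis.

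Some V families of IGK lay on 1 strand and others on both. All 24 Igkv4 models were on the minus strand and all 9 Igkv3 models on the plus strand, while Igkv1 had 7 on the plus and 3 on the minus strand. The longest run, of 38 models from Igkv4-81 to Igkv8-27, spanned 1181 kb on the minus strand. The last run, of 14 models from Igkv3-12 to Igkj5, held the 5 J models and lay on their strand. Segments on the strand of the J join by deletion of the DNA between them and those on the other strand by inversion, so the strand of a model states which of the 2 its joining would need.

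All 25 D and 88 J models had 1 exon. Of the 356 V models, 288 had 2 exons (a short leader exon and the exon of the variable domain), 67 had 1, and Trav14-3 had 1 model with 3 in addition to 1 with 2. Among all other transcripts 13.53% had 1 exon and 13.42% had 2. The share of V models with 2 exons was 68.75% in IGH (77 of 112), 83.84% in IGK (83 of 99), 88.07% in TRA/TRD (96 of 109) and 91.3% in TRB (21 of 23), and it was 6 of 7 in TRG and 3 of 3 in IGL. The 1 exon models of TRB and TRG were Trbv10, Trbv21 and Trgv5.

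The identifiers followed class and exon number without exception. All 356 V carried a protein identifier, each its own, and no D or J did. All 289 members with more than 1 exon carried a start site group and none of the 180 with 1 exon did. Of the 87259 other transcripts, 75455 carried a start site group and 11804 had 1 exon. These counts make up the whole, so the start site pattern was not particular to the segments. Of the other transcripts 57.67% carried a protein identifier, and 6.033% of those had a single exon, against 67 of 356 V.

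Single exon V models were close in length to the second exon of the others. The 1 exon models had a median of 294 bases in IGH, 287 in IGK and 273 in TRA/TRD, and the 3′ exon of the 2 exon models had 305, 301 and 291 bases. None of the 67 began with ATG, while 235 of 288 2 exon models did. The leader exon had a median of 49 bases, and its length left a remainder of 1 when divided by 3 in 252 of 288. In a leader that begins at its start codon, such a length splits the codon at the joint between the exons. TRA/TRD stood lower in both, with a remainder of 1 in 63 of 96 leaders and ATG in 52 of 96. The shortest V models were Ighv1-62-1, with 90 bases, and, outside the clusters, AC165327.1, with 108 bases. The longest leader exon was that of Trav6d-5 (183 bases) and the longest intron that of Trav6-3 (1279 bases), against a median intron of 85 bases in IGH, 178 in IGK and 164.5 in TRA/TRD.

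**Figure D2:**
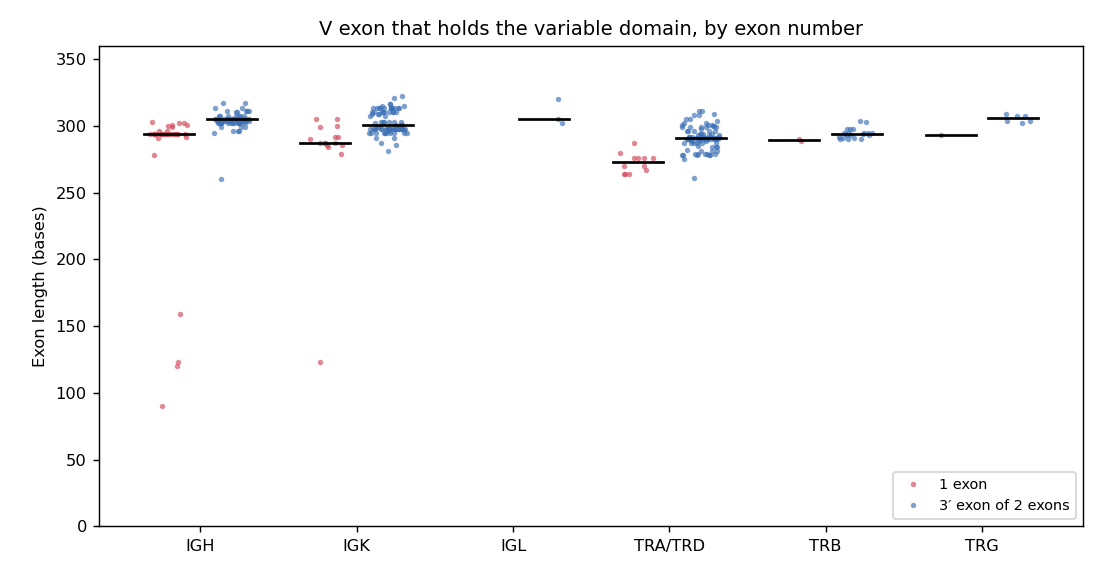
Length in bases of the exon that holds the variable domain, for V models of 1 exon and for the 3′ exon of V models of 2 exons, 1 point per model, with the median as a line. In IGH, IGK and TRA/TRD the median of the 1 exon models (294, 287 and 273) lies below that of the 2 exon models (305, 301 and 291), and the ranges overlap.

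The ends of the V introns departed from the usual letters more often than those of other introns. An intron with GT at its start and AG at its end was found in 223 of 288 V models (77.43%), against 96.83% of 238197 introns of all other transcripts. The end was not AG in 52 V models. In 49 of the 52 an AG stood exactly 3 bases earlier, whereas 4.157% of the 3368 other introns without AG at the end had it there. Examples are printed with 12 bases of the intron and 9 of the next exon as the models draw them, with the AG in capitals. Ighv5-2 (chr12:114816715-114817201, minus) and Igkv14-130 (chr6:67741040-67741505, plus) are 2 of the 49, and Ighv1-85 (chr12:117238239-117238672, minus) is drawn as usual.
Ighv5-2 intron end: tgtttgcAGgtgtacagtgtg
Igkv14-130 intron end: cacttctAGgtgccagatgtg
Ighv1-85 intron end: ttctctccacAGgtgtccact

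In such a model the second exon begins 1 codon after the AG, so the model leaves out 3 bases that follow it. The 52 were 18 in IGH, 17 in IGK, 9 in TRA/TRD, 5 in TRB, 2 in TRG and 1 of the stray models. Of the 236 V models whose intron ended in AG, 17 had another AG 3 bases earlier, 13 of them in TRA/TRD. An AG stood there in 1.096% of the introns of all other transcripts, whatever their end. At the intron start, GT was present in 275 of 288. GC stood there in 8, of which 6 were in IGH, all in the Ighv2 family. AT stood there in Ighv7-2, Ighv7-3 and Ighv7-4. In these Ighv7 models and in the 6 of Ighv2, a GT stood 3 bases further into the intron. Ighv2-2 and Ighv2-4 were drawn with the intron beginning at such a GT. Ighv2-3 (chr12:114849395-114849828) and Ighv7-2 (chr12:115150236-115150694), both on the minus strand, are shown with 9 bases of the leader exon and 8 of the intron, the first 2 of the intron in capitals.
Ighv2-3 intron start: cattcccaaGCtgtaag
Ighv7-2 intron start: cacctttaaATggtaat
Ighv1-85 intron start: gaactgcagGTaagggg

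A recombination signal was found after the 3′ end of 296 of the 356 V models. The search asked for a heptamer 0 to 3 bases from the end with its first 3 letters exact and at most 2 mismatches to CACAGTG, and for a nonamer with at most 4 mismatches to ACAAAAACC behind a spacer of 11 to 13 or 22 to 24 bases. It read each side in the direction away from the segment only. Of several spacers that passed, the one with the fewest nonamer mismatches was kept. Ties went to the spacer nearest 12 or 23 bases. The same search found letters of this kind after 0.4011% of the other 87259 transcripts and before 0.4023% of them. By cluster, 89 of 112 V had a signal in IGH (79.46%), 91 of 99 in IGK (91.92%), 2 of 3 in IGL, 91 of 109 in TRA/TRD (83.49%), 19 of 23 in TRB and 2 of 7 in TRG.

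The spacer class did not mix within the V models of a cluster. All 91 signals of IGK had the short spacer, and all 89 of IGH, 2 of IGL, 91 of TRA/TRD, 19 of TRB and 2 of TRG had the long one. The J models mirrored this. Before the J, the signals of IGH (3 of 4 models) and IGK (4 of 5) had the long spacer and those of TRB (10 of 14) and TRG (4 of 4) the short one. In TRA/TRD 42 of 61 J had a signal, 41 with the short spacer and 1, Traj20, with the long one. Thus V and J paired short with long in IGK and long with short in TRA/TRD, TRB and TRG, while in IGH both had the long spacer and the 10 D that RefSeq calls segments, between them, had the short one on both sides.

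**Figure D3:**
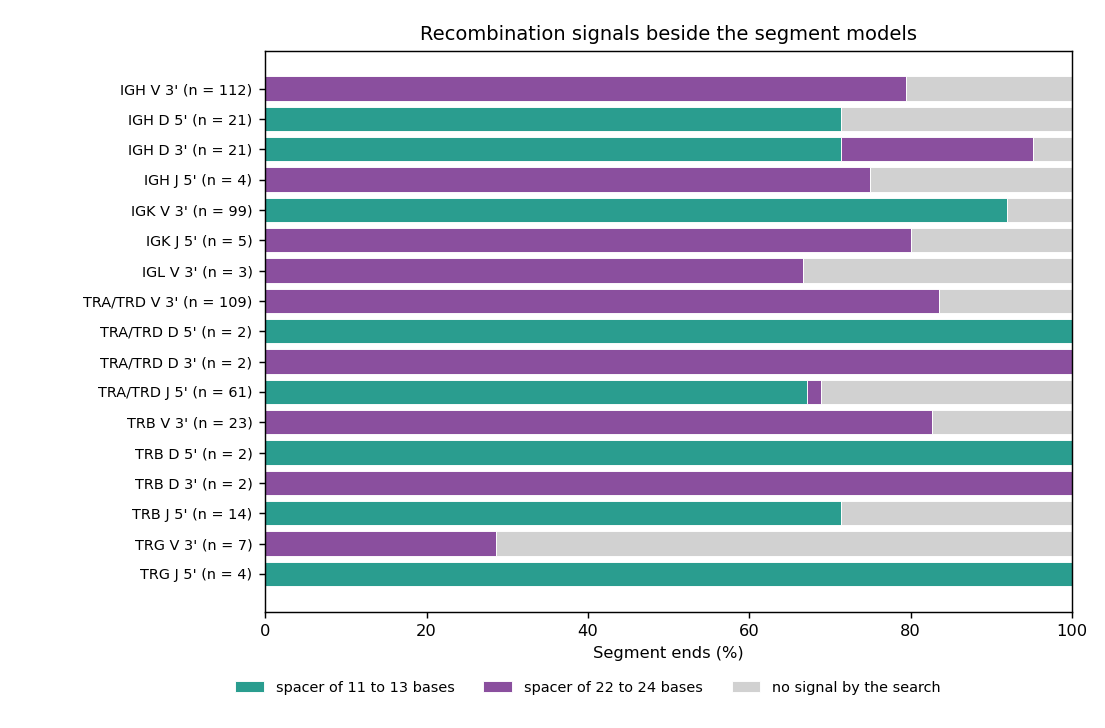
Share (%) of segment ends with a recombination signal of the short spacer (11 to 13 bases), of the long spacer (22 to 24 bases) or none by the search, by cluster, class and side, with the number of models beside each bar. Among the V models of the 6 clusters drawn, only those of IGK have the short spacer, at 91.92%. Of the 21 D of IGH, 15 have it before and 15 after the segment, and these are not all the same models.

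The 10 D of IGH that RefSeq calls segments all had the 12 base spacer on both sides. The 1 D without a RefSeq name, Gm16968, had 13 bases before and 12 after. Of the 10 pseudogenes, 4 had a signal before and 9 after the model, and 5 of the latter had the 23 base spacer, all in the Ighd5 family. The nonamers of these 5 had 3 or 4 mismatches. With at most 2 nonamer mismatches, 10 signals after the IGH D remained, none with the long spacer. The 2 delta and 2 beta D had 12 bases before and 23 after. Lengths of the IGH D ran from 10 to 29 bases. The 21 models held 17 distinct sequences, since Ighd2-5 and Ighd2-6 were identical, as were Ighd5-2, Ighd5-3 and Ighd5-4, and Ighd5-7 and Ighd6-1.

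In IGH the length of the long spacer went with the V family. The spacer kept by the search, which follows the nonamer letters, was 22 bases in 51 V models and 23 in 36. Of the Ighv1 family, which had 56 models, 44 had 22 bases and 6 had 23. All 4 Ighv9 signals and all 3 Ighv14 signals had 22 bases, whereas all 9 signals of Ighv5, 4 of Ighv3 and 2 of Ighv6 had 23. The Ighv8 family had no signal in any of its 8 models, and none was found either when the heptamer could lie from 3 bases inside to 10 bases outside the model end.

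Where the heptamer began depended on how the end of the model was drawn. It lay directly at the end in 86 of the 89 IGH signals and 84 of the 91 IGK signals, but in 46 of the 91 TRA/TRD signals, where 29 began 1 base and 15 began 2 bases outside. With the wider range the TRA/TRD count rose from 91 to 105 of 109 and the total to 325, all of the same spacer class as before, while the share of other transcripts rose to 1.381%. The 12 single exon V of TRA/TRD had a signal in 2, and its 96 models of 2 exons in 89. Models that RefSeq calls pseudogenes had a signal in 1 of 8 in IGH, against 88 of 104 segments, in 3 of 5 in IGK, against 88 of 94, and in 0 of 3 in TRA/TRD, against 85 of 100. In TRB, which had only 2 pseudogenes, both had a signal, beside 17 of 21 segments.

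The J motif was present in 66 of 88 J models. Among 42619 exons of other transcripts with the same range of length, 27 to 72 bases, 0.8142% held the form that begins with TTNGG and 0.4012% the form that begins with TGGGG. Of the J, 48 of 61 in TRA/TRD, 11 of 14 in TRB, 4 of 5 in IGK and 3 of 4 in IGH held it, and none of the 4 in TRG did. The gamma models nevertheless all had a signal before them and GT, the letters that begin a splice donor, after them. GT followed 56 of 61 J in TRA/TRD and 12 of 14 in TRB. Only the letters right after the model were read. The models of Trbj1-3, Igkj2 and Igkj5 end in GTAA, so a GT also stands inside them, before the one counted. In TRA/TRD the 52 J that RefSeq calls segments held the motif in 46, GT in 52 and a signal in 41, and the 9 pseudogenes in 2, 4 and 1. Motif, GT and signal were all absent in Ighj2, Igkj3, Trbj1-7, Trbj2-6 and 4 models of TRA/TRD.

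RefSeq calls Ighj2 a segment and not a pseudogene, and its model lay beside the letters of a heavy chain J. The model covers chr12:114667725-114667778 on the minus strand. A search of the neighbouring bases, made after the absence was seen, found the heavy chain motif, a GT after it and a signal before it at chr12:114667679-114667726, which is 48 bases long, shares 2 bases with the model and reaches 46 bases beyond its 3′ end. Both are printed, the found stretch with the motif in capitals and its signal, read away from the J, with heptamer and nonamer in capitals.
Ighj2 stretch: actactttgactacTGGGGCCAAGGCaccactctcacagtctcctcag
Ighj2 signal: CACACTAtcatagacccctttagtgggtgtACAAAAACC

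The signal had the 23 base spacer, 2 mismatches in the heptamer and 0 in the nonamer.

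Upstream of the V models, the octamer ATGCAAAT, the element that the factors OCT1 and OCT2 bind in immunoglobulin V promoters, divided immunoglobulin from T cell receptor segments. In the 250 bases before the first base of the model, either strand, it was found in 85 of 112 V of IGH (75.89%), 61 of 99 of IGK (61.62%) and 3 of 3 of IGL, in 1 of 109 of TRA/TRD (Trav13n-4) and in none of the 23 of TRB or the 7 of TRG. Of 47285 other multi-exon transcripts with a protein identifier, 1.292% held it. Its orientation was the same in every heavy chain model that had it and opposite in every light chain model. Examples are printed in the direction of the V with 10 bases on each side and the octamer, or its reverse complement, in capitals. The V models are Ighv1-85, Ighv5-2, Igkv2-137, Igkv3-1 and Iglv1, whose positions stand above.
Ighv1-85: gctcatgaatATGCAAATtacccaagtc
Ighv5-2: gcaggaccacATGCAAATaagccttctc
Igkv2-137: caagcaggggATTTGCATattgctccct
Igkv3-1: tactctgcttATTTGCATatgaaataat
Iglv1: aatgaaagtaATTTGCATtactagccca

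The first 2 lines read ATGCAAAT and the other 3 the reverse complement. In the 61 IGH models of 2 exons that had the octamer, a median of 100 bases lay between it and the model (76 to 128). In the 24 of 1 exon the median was 239 bases (82 to 242), in a window that allowed at most 242. Within 500 bases 27 of the 35 IGH models of 1 exon had the octamer. In IGK it lay at a median of 92 bases (75 to 124) in 61 of 83 models of 2 exons and in none of 16 of 1 exon, but within 500 bases 11 of the 16 had it. In IGH the leader exon and the intron that the 2 exon models include had medians of 46 and 85 bases. Ighv2 (10 models), Igkv6 (9) and Igkv8 (9) did not hold the exact letters in any model, and with 1 letter free, a form found before 12.93% of other transcripts, 10, 7 and 7 of them did.

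**Figure D4:**
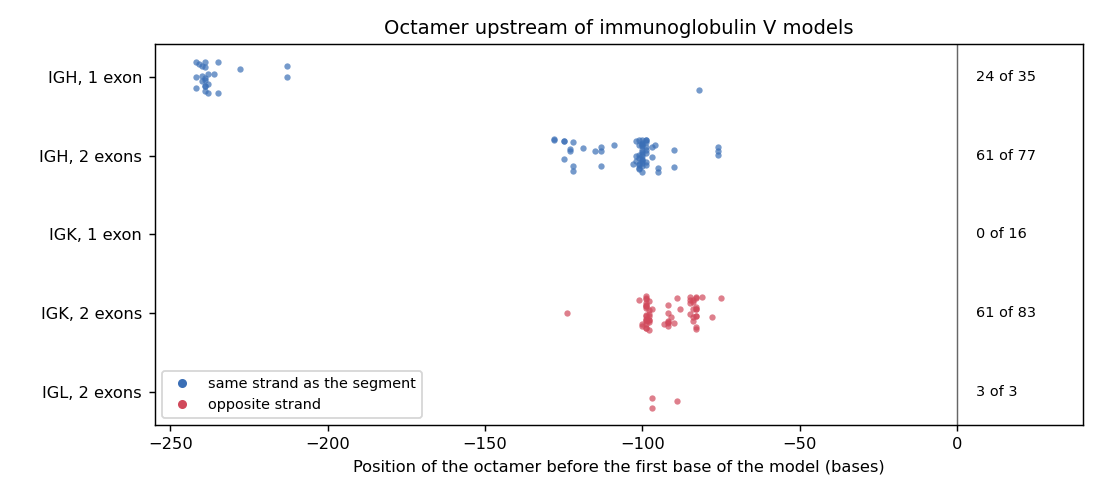
Position of the octamer in bases before the first base of immunoglobulin V models, by cluster and exon number, coloured by its strand relative to the segment, with the number of models that have it at the right. IGH models of 1 exon sit near 239 bases and those of 2 exons near 100 bases, and every light chain octamer is on the opposite strand.

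Many V models were near copies of each other. Identity was taken over the 3′ exon, as 1 minus the edit distance over the longer length, to the nearest other V of the chromosome. The median was 94.1% in IGH (112 models), 92.9% in IGK (99) and 97.6% in TRA/TRD (109), but 65.42% in TRB (23) and 69.74% in TRG (7). The nearest copy was the direct neighbour in only 12 of 112 in IGH, 16 of 99 in IGK and 4 of 109 in TRA/TRD. The best pairs were Ighv1-62-2 and Ighv1-71 (identical, 295.8 kb apart), Igkv5-45 and Igkv5-43 (98.99%), Iglv1 and Iglv2 (96.39%), Trbv13-2 and Trbv13-3 (91.84%) and Trgv2 and Trgv1 (95.44%).

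In TRA/TRD some distances between nearest copies recurred. In 35 TRA/TRD models the nearest V lay 26 places away, at 290.8 to 311.2 kb, and 26 of the 35 were identical to it, Trav9d-2 and Trav9n-2 (310.9 kb) among them. A further 19 had their nearest V 61 places away, at 691.3 to 703.4 kb, with at least 95.52% identity. The other 55 of the 109 had their nearest V at other numbers of places, from 14.92 to 1309 kb away. Some of these lay within the ranges in kb given above, among them Trav12d-1 (27 places, 311.1 kb) and Trav13d-1 (60 places, 693.7 kb).

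The copies were also set against the study's read length of 100 bases. Of the 355 V models long enough for a window of 100 bases within an exon, 210 had all their windows at a single place of the genome and 40 had none, of which 38 were in TRA/TRD and 2 were the identical pair Ighv1-62-2 and Ighv1-71. In TRA/TRD 51.3% of windows occurred once, and the median model had 61.0% of its windows so, against 93.5% of windows in IGH, 94.1% in IGK and 100% in TRB. With 50 base windows, an alternative chosen after the data were seen, the models with all windows at a single place fell to 75 and those with none were 42. Every D and J model, at most 72 bases long, was shorter than a read.

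**Figure D5:**
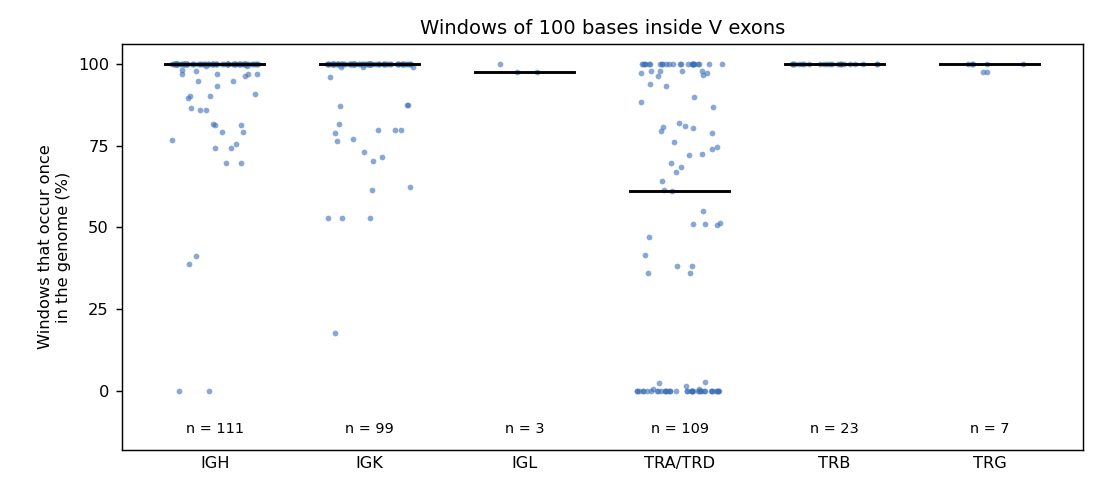
Share (%) of the 100 base windows inside the exons of each V model that occur once in the genome, 1 point per model, by cluster, with the median as a line and the number of models below. TRA/TRD spreads from 0 to 100% with a median of 61.0%, and all 23 models of TRB are at 100%.

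Of the 3 V models outside the clusters, the 2 on chromosome 6 had kappa features. AC164628.1 (chr6:42930689-42931149, plus) and Igk-V (chr6:43031517-43032096, minus) lie between TRB and IGK. Both had 2 exons, a protein identifier and a signal of the 12 base spacer, and AC164628.1 had the octamer, on the opposite strand, 83 bases upstream. The nearest V of Igk-V on the chromosome was Igkv2-137 (94.89%, 24470 kb away) and that of AC164628.1 was Igkv14-100 (86.53%), both in IGK. AC165327.1 (chr19:61308686-61308793, minus) was the only V of its chromosome and had 1 exon and neither signal nor octamer.

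Of the constant regions nearest to a J, Igkc lay 2.507 kb after Igkj5, Ighm 5.783 kb after Ighj4, Trac 1.68 kb after Traj1, Trbc1 2.531 kb after Trbj1-7 and Trbc2 2.873 kb after Trbj2-7, and Tcrg-C overlapped Trgj4 on the same strand and shared its locus. This was the only member whose exon overlapped an exon of another kind of model. All 12 models with the constant region mark carried a protein identifier, and 1, Igkc, had a single exon. Ptcra, on chromosome 17, had no member near it.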

How the data were processed

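Total RNA of NAc pools was made into poly(A) libraries, and 12 samples in 4 groups were sequenced. For the reads, the notes of the submitters list TopHat, Cufflinks, Cuffdiff and CASAVA without versions, on the build mm9. The deposited file holds the gene models that the authors used, as exon start and end coordinates in bases on NCBIM37 with locus, start site and protein identifiers, and no value for any sample. Depth per sample cannot be read from it, and no interval or test was computed.

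From these coordinates, models were counted by source column, cluster, strand and exon number. Sequences were read from the NCBIM37 genome, letters were searched as described beside each result, and identity was taken from edit distances. Segment names and the terms segment and pseudogene are those of RefSeq GRCm38.p6, matched through the gene identifiers of GENCODE M1 or by symbol, and no coordinate of GRCm38 was used. Of the members, 10 had no RefSeq name and are called as in the file, and 2 had names that differed between the ways of matching. The background for each search was the other transcripts of the file. Tandem copies are not independent of each other, so shares are descriptions.

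Named were the first and last member of each class in a cluster, exceptions to the commonest strand, exon number or identifier, extremes of length, D and J segments, best pairs, models outside the clusters and flanking genes. Other members named, among them V families, Ighv8 and the Ighj2 stretch, were picked once their values had been seen. The members, lists and rules were chosen with earlier results of these data known. Alternatives changed the choice of members, the letters allowed, the windows and the order. Python 3.11.15, numpy 2.4.6, pandas 2.3.3, pysam 0.24.0, samtools 1.23.1, edlib 1.3.9.post1 and matplotlib 3.10.9 were used, and the searches were tested on simulated data. Expression in the NAc was not analysed here. Some flanking and listed genes are not reported here.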

Additional observations from a re-analysis of the deposited data

How the results depend on the processing

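No paired analysis was possible because the file holds no value per sample, and for the same reason no replicate could be left out. Choosing members by gene name (Igh, Igk or Igl followed by v, d or j) in place of the source column gave 92 transcripts instead of 469. Of these, 91 were shared, 1 (Igkv4-69, listed as protein coding) came in by name alone, and 378 by source column alone, since most models bear clone or T cell receptor names. Counting gene names or loci gave 468 each. With windows of 50 bases, an alternative added after the data were seen, the V models with all windows at a single place were 75 in place of 210. The other alternatives for the totals over all clusters stayed within 1.5 times the count reported, V models with a signal at 224 to 325 of 356, J models with the motif at 74 with its first 5 letters only, and V models with an octamer at 165 within 500 bases and 221 with 7 of 8 letters. By cluster, an exact heptamer left 8 V with a signal in place of 19 in TRB, 1 in place of 2 in TRG and 0 in place of 2 in IGL. In TRB at most 1 heptamer mismatch, or at most 2 nonamer mismatches, left 10, and the latter left 1 in TRG. In TRA/TRD 46 in place of 91 had the heptamer directly at the model end and 54 a nonamer with at most 2 mismatches. D and J signals also moved. An exact heptamer left 1 in place of 15 before the IGH D and 7 in place of 20 after them. For J it left 0 in place of 3 in IGH, 16 in place of 42 in TRA/TRD and 1 in place of 10 in TRB. In IGK and TRG it left 3 J in place of 4. Traj20 had no long spacer signal with at most 1 heptamer, or at most 2 nonamer, mismatches. With 7 of 8 letters the octamer count of TRA/TRD rose from 1 to 20 and that of TRB from 0 to 3, beside a background of 12.93%. The limits are those of an annotation and of letters in short windows. A match shows neither recombination nor binding, the absence of a match says only that these letters are not in that window, and nothing here bears on RNA of the NAc.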

Other observations

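The clusters also held genes of other kinds. Between the D and V models of IGH lay Adam6a, and between Ighd1-1 and Ighd3-1 lay Adam6b, 2 genes of the ADAM family of membrane proteins. The 251.2 kb between Trbv30 and Trbd1 held trypsin genes, among them Prss1, Prss2, Prss3, Try4, Try5 and Try10, and the 138.4 kb between Trav1 and Trav2 held the odorant receptor genes Olfr1507, Olfr1508 and Olfr1509. IGK held 5 models named SNORA17, a small nucleolar RNA, each beside an Igkv14 model: Igkv14-100, Igkv14-111, Igkv14-126 and, for 2 of them, Igkv14-130. It also held Igkv4-69, a V name that the file lists as protein coding and that was therefore not a member. IGH was flanked by Ighm and Zfp386, IGL by Iglc3 and Olfr164, TRA/TRD by Olfr1510 and Trac, TRB by Moxd2 and Ephb6, and TRG by Amph and Stard3nl.

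Genes that act on the segments or with their products were present as models of their own. All 10 listed genes of recombination had one, from the recombinase genes Rag1 and Rag2, which lie next to each other on chromosome 2, and the terminal transferase Dntt to the end joining genes Prkdc, Xrcc4, Xrcc5, Xrcc6, Lig4, Nhej1 and Dclre1c. So did the surrogate light chain genes Vpreb1, Vpreb2 and Igll1, the gene Vpreb3, and the receptor partners Cd79a and Cd79b. Of 10 constant region names looked for outside the constant region mark, 3 had a model, Iglc2, Iglc3 and Ighg2c, all listed as protein coding. Iglc2 lay inside IGL, between Iglv1 and Iglv3.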
